A study of Mus musculus with 6 samples.

Results

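In germline stem (GS) cell cultures, mouse spermatogonia divide in a dish and keep the ability to make sperm after transplantation. Of 6 libraries from such cells, 4 are compared here as 2 pairs, each with 1 culture stored on Earth and 1 stored on the International Space Station: Ground-3 with Space-1, and Ground-1 with Space-3. The pairs were chosen from the counts, because these libraries resembled each other across storage sites, and not from the labels, which give no pairing and whose replicate numbers run the other way. No test of the pairs against each other is therefore possible, and all values that set them apart are a description. The remaining 2 libraries, Ground-2 and Space-2, are given beside them. The pairs were taken as the opposite ends of the 6 libraries, with Bcl6b, Scin and Pde4c as the genes that mark the split, so the middle place of Ground-2/Space-2 over many genes is part of the choice.

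All 6 libraries were poly(A) RNA sequencing of GS cells set up from testes of DBA/2 mouse pups aged 2 to 3 days, with the genotype DBA/Tg14(act-EGFP-OsbY01), in which an EGFP transgene is driven by the actin promoter that its name gives. The Ground and Space groups, with 3 libraries each, were frozen for 6 months on Earth or in orbit and carried the same transgene. Per the study's methods the cells were grown with GDNF and FGF2 on mouse embryonic fibroblasts, and RNA for sequencing was taken the day after thawing. The titles were used for the storage site, because the treatment label gives the opposite site in all 6 libraries. The design text calls the libraries biological replicates, but no label says which culture any of them came from. Whether Ground-3 and Space-1, or Ground-1 and Space-3, share a starting culture was not tested.

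Spermatogonial stem cells renew themselves in response to GDNF, which binds Gfra1 and signals through the receptor tyrosine kinase Ret, and to fibroblast growth factors. Both inputs activate the Ras, Raf and ERK kinase cascade among other pathways, and induce transcription factors such as Bcl6b, Etv5 and Lhx1 that stem cell cultures depend on. ERK activity also raises its own inhibitors, among them the phosphatase Dusp6 and the Sprouty and Spred proteins, whose mRNAs are widely read as a record of recent ERK signalling.

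Total counts were 19015985 to 24110916 per library, and levels are given as CPM, a gene's counts relative to the scaled library total (trimmed mean of M values). A gene was called apart when both libraries of 1 pair lay above both of the other and the pair means of log2 CPM differed by at least 1, a 2-fold difference. Of 15104 genes that passed the filter on low counts, 709 (4.69%) were apart and higher in Ground-1/Space-3, and 155 (1.03%) were apart and higher in Ground-3/Space-1. Without the demand for a 2-fold difference, the pairs did not overlap in 5479 genes (36.3%) that were higher in Ground-1/Space-3 and in 5379 (35.6%) that were higher in Ground-3/Space-1. The same rule applied to storage site in the same 4 libraries set 54 genes (0.358%) apart, and Space and Ground did not overlap in 14.8% of genes.

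Single libraries showed the same order. Ground-1 and Space-3 differed at least 2-fold in 141 genes and Ground-3 and Space-1 in 369. Any library of 1 pair against any of the other differed in 1029 to 1118 genes, also when both had been stored at the same site. Ground-2 and Space-2 differed in 313 genes. In 864 apart genes, the median difference within a pair was 0.24 on the log2 scale for genes higher in Ground-1/Space-3 and 0.15 for the others, against 1.29 and 1.21 between the pairs.

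**Figure D1:**
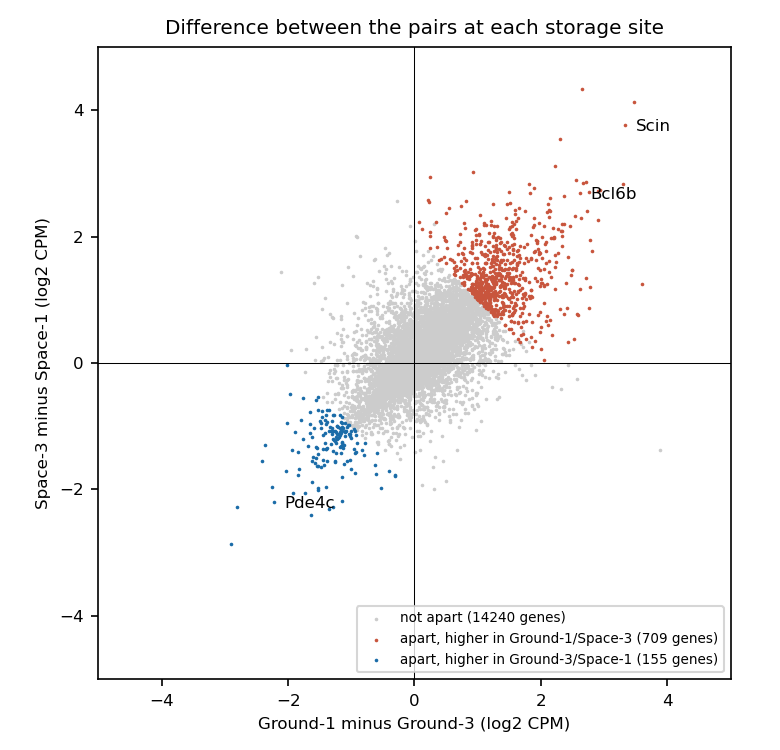
Difference in log2 CPM between Ground-1 and Ground-3 (horizontal axis) and between Space-3 and Space-1 (vertical axis), 1 point per gene for 15104 genes. The 709 red and 155 blue genes were apart and lie in the upper right and lower left, so that the difference had the same sign at both storage sites, as the rule requires; Scin, Bcl6b and Pde4c are named.

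The apart genes were mostly low in level. Their mean over the 4 libraries had a median of 1.52 CPM for genes higher in Ground-1/Space-3 and 3.10 CPM for genes higher in Ground-3/Space-1, against 23.1 CPM for all genes tested. Among the 10836 genes with a mean of at least 5 CPM, 148 and 61 were apart, so that the share of apart genes that was higher in Ground-1/Space-3 was 70.8%, against 82.1% among all apart genes. Ground-1 and Space-3 also had counts in more genes, 20316 and 20264, than Ground-3 and Space-1, with 19560 and 19543, at like totals. At the limit of the rule, Dkkl1 (1.0) and Glrx2 (-1.001) lay just inside, and Dusp2 (0.99) and Chst1 (-0.996) just outside, as log2 differences of Ground-1/Space-3 minus Ground-3/Space-1.

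Bcl6b, a transcriptional repressor that GDNF induces and that supports self-renewal of spermatogonial stem cells, was the most abundant of the genes that marked the split. Its level was 364 CPM in Ground-1, 371 in Space-3, 222 in Ground-2, 218 in Space-2, 59.1 in Ground-3 and 57.6 in Space-1. The libraries fell into 3 levels with no overlap, each holding 1 Ground and 1 Space library, and the outer levels differed by 2.65 on the log2 scale. Scin encodes scinderin, a calcium-dependent protein that severs actin filaments. It stood at 15.8 CPM in both Ground-1 and Space-3, at 4.31 in Ground-2 and 2.45 in Space-2, and at 1.49 in Ground-3 and 1.07 in Space-1. The log2 difference was 3.55, and it was 3.33 when Space-1 was left out and 3.77 when Ground-3 was left out. Pde4c, a phosphodiesterase that breaks down cyclic AMP, ran the other way, with 89.1 CPM in Ground-3 and 90.8 in Space-1, 33.4 in Ground-2 and 35.1 in Space-2, and 19.1 in Ground-1 and 19.7 in Space-3. It was higher in Ground-3/Space-1 by 2.21 on the log2 scale.

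The 12 genes in each direction chosen for description had the widest distance between the nearest libraries of the pairs, at a mean of at least 5 CPM. Besides Bcl6b and Scin, those higher in Ground-1/Space-3 were Itpkb, Kcnj15, Cd93, Plaur, Ank1, Epha2, Arhgap31, Exoc3l, Cdc42ep3 and Fosl1. Epha2, a receptor tyrosine kinase for ephrins, was the most abundant, at 493 and 486 CPM in Ground-1 and Space-3, 294 and 296 in Ground-2 and Space-2, and 121 and 123 in Ground-3 and Space-1. Itpkb, a kinase that phosphorylates inositol trisphosphate, stood at 22.5 and 22.8 CPM against 3.24 and 3.42 in Ground-3 and Space-1, with 8.84 and 9.70 in Ground-2 and Space-2. In both genes the 3 pairs were separated, and the libraries of a pair lay close together. Plaur, the urokinase receptor, had 12.8 and 14.4 CPM in Ground-1 and Space-3, 5.75 and 4.53 in Ground-2 and Space-2, and 2.41 and 2.22 in Ground-3 and Space-1. Kcnj15 is an inwardly rectifying potassium channel, Ank1 an ankyrin of the membrane skeleton, and Arhgap31 and Cdc42ep3 act on or downstream of the GTPase Cdc42. Their log2 differences were 2.76, 2.17, 2.08 and 2.28.

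Besides Pde4c, the genes with the widest distance that were higher in Ground-3/Space-1 were Afap1l2, Ifi47, Hoxc11, Ddit4, Nnat, Col2a1, Rin2, Rspo1, Pltp, Hoxc13 and Rab3a. Ddit4, an inhibitor of mTORC1 signalling that stress induces, had 60.8 and 57.8 CPM in Ground-3 and Space-1, 36.9 and 35.5 in Ground-2 and Space-2, and 20.3 and 19.3 in Ground-1 and Space-3. Rspo1, a secreted protein that strengthens Wnt signalling, had 9.69 and 7.66 CPM, then 5.43 and 4.96, then 2.63 and 2.84, in the same order of pairs. Both genes therefore ran in 3 separate steps. Col2a1, a fibrillar collagen chain, had 48.9 and 43.9 CPM in Ground-3 and Space-1 against 15.8 and 14.9 in Ground-1 and Space-3. Of the 24 marker and widest-distance genes, 13 overlap another annotated gene. How the counting treated strand is not given in the sources used here, so reads of such partners cannot be told apart; Bcl6b, Scin and Pde4c are not among the 13.

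**Figure D2:**
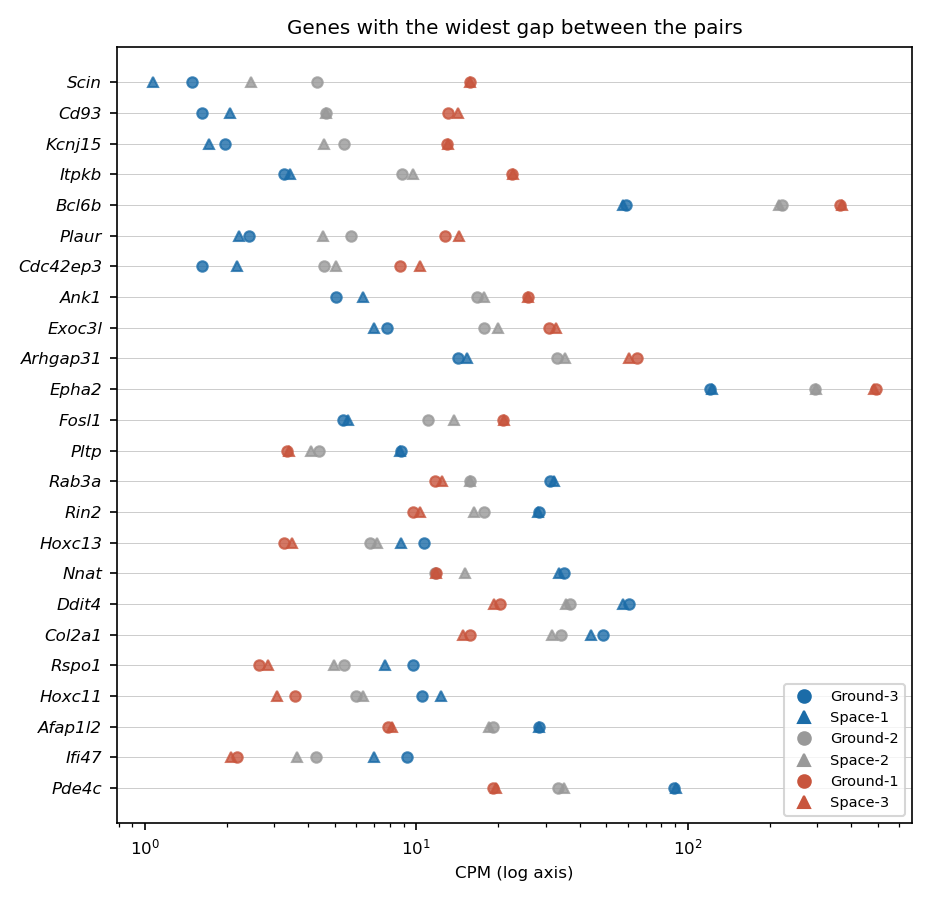
CPM (log axis) of the 24 genes with the widest distance between the pairs, 1 row per gene and 1 point per library (circles Ground, triangles Space; red Ground-1/Space-3, grey Ground-2/Space-2, blue Ground-3/Space-1). Red and blue never overlap because the rule chose such genes; the grey points of Ground-2 and Space-2 lie between them in most rows, with Nnat at 11.7 and 15.1 CPM next to the red points.

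Sequence before the start site was available from RefSeq (GRCm38.p6) for 15 of the 24 genes. The sequences are shown for the marker genes that have one and for the genes of widest distance whose 250 bases before the start hold a motif of factors downstream of ERK or cyclic AMP. Capitals mark the motif, and Scin and Pde4c hold none of those searched.
Scin (chr12:40134229-40134478, minus strand): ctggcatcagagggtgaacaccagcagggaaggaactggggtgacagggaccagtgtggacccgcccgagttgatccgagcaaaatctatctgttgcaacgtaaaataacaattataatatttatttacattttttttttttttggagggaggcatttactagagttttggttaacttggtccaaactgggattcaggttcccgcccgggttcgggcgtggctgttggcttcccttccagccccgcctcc
Pde4c (chr8:70723814-70724063, plus strand): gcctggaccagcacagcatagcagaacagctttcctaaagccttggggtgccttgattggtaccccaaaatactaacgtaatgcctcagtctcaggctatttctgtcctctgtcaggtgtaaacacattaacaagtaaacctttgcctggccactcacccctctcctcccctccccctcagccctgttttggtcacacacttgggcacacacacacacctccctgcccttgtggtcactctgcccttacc
Plaur (chr7:24462233-24462482, plus strand): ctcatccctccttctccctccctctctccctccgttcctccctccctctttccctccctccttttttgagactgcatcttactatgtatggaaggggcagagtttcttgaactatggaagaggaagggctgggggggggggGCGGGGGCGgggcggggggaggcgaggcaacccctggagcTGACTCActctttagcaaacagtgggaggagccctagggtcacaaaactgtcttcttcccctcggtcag
Epha2 (chr4:141300971-141301220, plus strand): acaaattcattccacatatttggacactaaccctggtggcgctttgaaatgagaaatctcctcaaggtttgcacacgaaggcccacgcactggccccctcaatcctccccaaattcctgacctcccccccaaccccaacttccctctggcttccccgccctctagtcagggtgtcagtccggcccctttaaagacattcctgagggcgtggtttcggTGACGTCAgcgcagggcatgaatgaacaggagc

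In Plaur the capitals are an Egr motif from 109 to 101 bases and an AP-1 motif from 69 to 63 bases before the start, and in Epha2 a cyclic AMP response element from 33 to 26 bases before it. The search covered both strands for TGACGTCA (cyclic AMP response element), TGANTCA (AP-1), CCGGAAGT (ETS) and GCGGGGGCG (Egr). Of 32851 promoters in RefSeq, 1.55%, 6.75%, 2.88% and 2.57% held them. In 673 promoters of genes apart and higher in Ground-1/Space-3, the shares were 1.93%, 7.13%, 0.594% and 3.71%, and in 14774 promoters of tested genes they were 2.50%, 4.53%, 5.52% and 4.74%. In 130 promoters of genes apart and higher in Ground-3/Space-1 they were 1.54%, 6.92%, 0% and 0.769%, so that the AP-1 share was alike in both directions. Promoters were found for 15 of 22 ERK list genes (15 promoters) and 9 of 15 GDNF and FGF-responsive genes (14 promoters). None of these held the AP-1 or the ETS motif. In the ERK list 1 promoter held the cyclic AMP response element and 1 the Egr motif. With so few promoters, the absence of a motif says little. The apart genes had a median of 8 CG dinucleotides in these windows in each direction, against 15 for tested genes and 6 for all promoters. They were also lower in level than all genes tested, and the part of level in the CG count was not tested. Such matches are letters in a window and do not show that a factor binds there.

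Genes that respond to GDNF and FGF, which are transcriptional regulators except for the neurofilament gene Nefm, included 7 apart genes among 14 tested, all higher in Ground-1/Space-3, against 4.69% of all genes tested. Of 15 listed, 1 fell below the filter. The list was drawn up with earlier results of these libraries known, so its direction is not independent evidence. Besides Bcl6b the apart members were Egr2, Etv5, Etv4, T, Egr3 and Lhx1. Etv5, an ETS factor that spermatogonial stem cells need for self-renewal, stood at 259 and 262 CPM in Ground-1 and Space-3, 202 and 195 in Ground-2 and Space-2, and 93.0 and 99.1 in Ground-3 and Space-1. Etv4, its close relative, had 144 and 149, then 103 and 106, then 59.1 and 57.4 CPM. The zinc finger factor Egr2 had 77.1 and 81.9, then 40.7 and 43.1, then 23.2 and 27.4 CPM. All 3 factors kept the order of Bcl6b, with log2 differences of 1.44, 1.33 and 1.65. The LIM homeobox factor Lhx1 was nearest to the limit, with a difference of 1.01 and levels of 64.4 and 69.4 CPM against 31.5 and 34.96 in Ground-3 and Space-1.

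The list did not move as 1 block. Its members Egr4, Mycn, Cited2, Sox3 and Nefm, 5 in all, were higher in both Ground-3 and Space-1 than in both Ground-1 and Space-3. These differences were less than 2-fold. Of all genes, 35.6% were higher in Ground-3/Space-1 without overlap, so 5 of 14 tested is near that share. Mycn, which supports self-renewal in GS cells, had 172 and 174 CPM in Ground-3 and Space-1 against 104 and 102 in Ground-1 and Space-3. Id4, a marker of stem cell-rich spermatogonia, did not separate the pairs, with 27.7 and 26.5 CPM against 27.8 and 23.3. The median difference over the 14 tested genes was 0.72, against 0.0062 over all genes.

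Of the 7 receptor and co-receptor genes of the GDNF family, none was apart. Ret had 401 CPM in Ground-1, 401 in Space-3, 401 in Ground-3 and 403 in Space-1, and was higher, at 448 and 458 CPM, in Ground-2 and Space-2. Gfra1 had 142 and 148 CPM in Ground-1 and Space-3 against 100 and 101 in Ground-3 and Space-1, a difference of 0.52, and 149 and 141 in Ground-2 and Space-2. Thus the outer pairs had like levels of Ret, and Gfra1 was at the same level in Ground-2/Space-2 as in Ground-1/Space-3. The median over the 7 genes was 0.0996, and from -0.00387 to 0.20 with each library left out. All 7 receptor genes had a higher mean in Ground-2/Space-2 than in either outer pair, against 3829 of all 15104 genes.

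All 22 genes listed as feedback inhibitors or immediate early targets of ERK were higher in both Ground-1 and Space-3 than in both Ground-3 and Space-1. The share of all genes was 36.3%, and the median difference of the list was 0.62. Like the other gene lists here, this list was drawn up with earlier results of these libraries known. Its direction is therefore not independent evidence, and ERK activity itself was not tested. Of the 22 genes, 6 were apart, against 4.69% of all genes: Fosl1, Spry4, Dusp6, Myc, Spred3 and Fosb. Dusp6, the phosphatase that removes the activating phosphates of ERK, had 186 and 184 CPM in Ground-1 and Space-3, 108 and 109 in Ground-2 and Space-2, and 62.4 and 59.7 in Ground-3 and Space-1. Spry4, an inhibitor of receptor tyrosine kinase signalling, had 82.7 and 86.0, then 44.9 and 46.2, then 26.1 and 26.2 CPM. Fosl1, an AP-1 subunit stabilised by ERK, had 20.9 and 21.1, then 11.1 and 13.8, then 5.39 and 5.60 CPM. These 3 genes ran in the same steps as Bcl6b. Spred1 had the smallest difference of the list, 0.12, with 113 and 110 CPM against 101 and 104.

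When the list was divided into 11 inhibitors and 11 immediate early genes, a division made after their values had been seen, Ground-2 and Space-2 took different places. Their mean lay between the outer pairs for 11 of 11 inhibitors, against 48.9% of all genes, but for only 3 of 11 immediate early genes. These were Fosl1, Myc and Phlda1. For the other 8 the mean was below both outer pairs, against 3884 of all 15104 genes. Egr1, an immediate early transcription factor, had 608 and 618 CPM in Ground-1 and Space-3, 328 and 345 in Ground-3 and Space-1, and only 268 and 273 in Ground-2 and Space-2. Junb, an AP-1 subunit, had 106 and 108, 54.0 and 53.7, and 48.0 and 48.2 CPM in the same order. For these genes Ground-2/Space-2 was thus the lowest of the 3 pairs, and the order differed from that of Dusp6 and Bcl6b. The median difference between the outer pairs was 0.63 for the inhibitors and 0.60 for the immediate early genes.

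**Figure D3:**
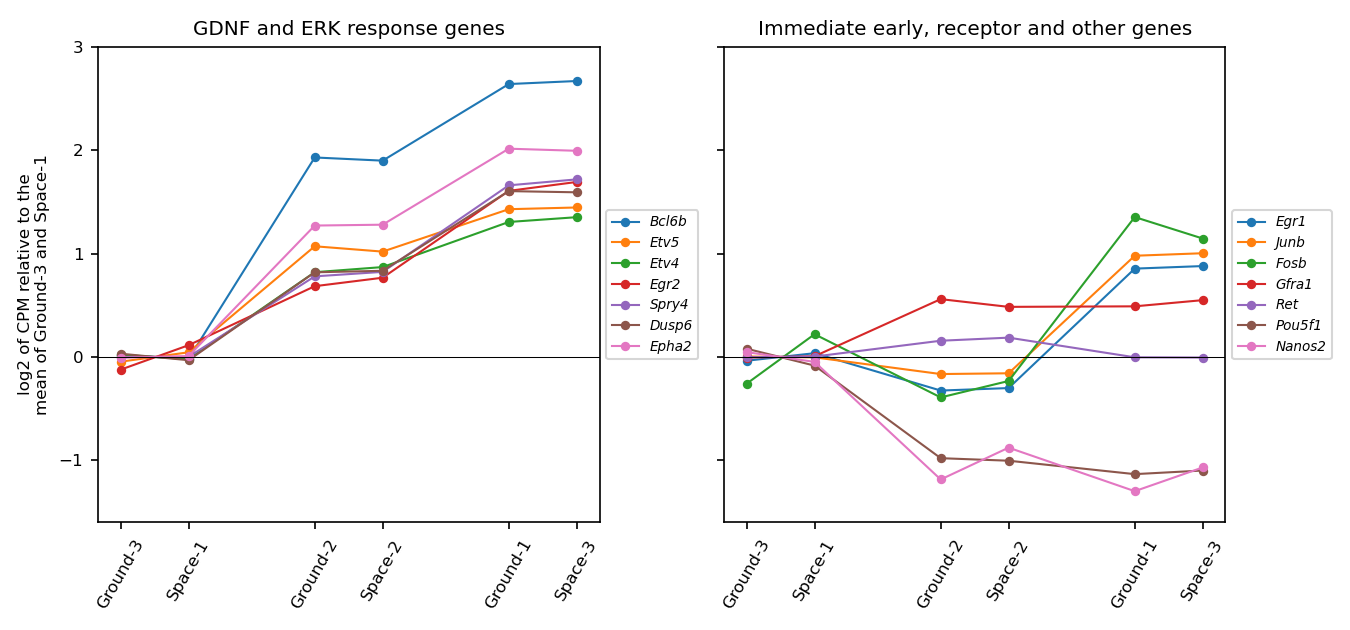
Log2 of CPM relative to the mean of Ground-3 and Space-1, 1 point for each of the 6 libraries, joined by a line per gene. On the left Bcl6b, Etv5, Etv4, Egr2, Spry4, Dusp6 and Epha2 are intermediate in Ground-2 and Space-2; on the right Egr1, Junb and Fosb fall below 0 there on average, Ret stays near 0, and Pou5f1 and Nanos2 lie about as low in Ground-2 and Space-2 as in Ground-1 and Space-3.

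Of 27 tested genes of undifferentiated spermatogonia, 2 were apart and higher in Ground-1/Space-3 and 1 in Ground-3/Space-1, near the 4.69% and 1.03% of all genes. Without the 2-fold demand, 11 were higher in Ground-1/Space-3 and 10 in Ground-3/Space-1, near the 36.3% and 35.6% of all genes. The median difference was 0.011, which changed sign when Ground-3 (-0.021) or Space-1 (-0.074) was left out. Foxc2, a forkhead factor of quiescent-type spermatogonia, had 24.3 and 21.8 CPM in Ground-1 and Space-3 against 9.34 and 9.27 in Ground-3 and Space-1. Nanos2, an RNA-binding protein that holds back differentiation, had 4.78 and 5.60 CPM against 12.1 and 11.4, and 5.16 and 6.39 CPM in Ground-2 and Space-2. Eomes had 2.47 and 2.64 CPM against 1.05 and 1.19. Foxc2 and Nanos2 thus differed in opposite directions. Zbtb16, the zinc finger factor PLZF, did not separate the pairs, with 359 and 354 CPM against 319 and 375.

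None of 22 tested genes of spermatogonial differentiation was apart. Of all genes, 4.69% were apart and higher in Ground-1/Space-3 and 1.03% in Ground-3/Space-1. The median of the list was 0.0064, with sign changes when Ground-3 (-0.012) or Space-3 (-0.008995) was left out. Dmrt1, a factor that keeps spermatogonia from entering meiosis early, had 582 and 589 CPM in Ground-3 and Space-1 against 358 and 360 in Ground-1 and Space-3. Kit, the receptor of differentiating spermatogonia, had 65.3 and 65.1 CPM in Ground-1 and Space-3 against 52.5 and 55.8. Among 26 meiosis genes 1, Spata22, was apart and higher in Ground-1/Space-3, near the 4.69% of all genes. It had 3.499 and 3.84 CPM in Ground-1 and Space-3 against 1.53 and 1.65. Rec8, a meiotic cohesin subunit, was higher in Ground-3 and Space-1, with 82.6 and 83.6 CPM against 52.9 and 56.2.

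The core pluripotency factors Pou5f1 and Sox2 were apart and higher in Ground-3/Space-1, against 1.03% of all genes. They were the only apart genes of 16 tested among 19 listed. The list median was 0.049, and 0.087 without Space-1. The list as a whole went both ways: 8 genes were higher without overlap in Ground-1/Space-3 and 4 in Ground-3/Space-1. The shares of all genes were 36.3% and 35.6%. Dppa4, with 76.9 and 78.5 CPM in Ground-1 and Space-3 against 39.5 and 40.0 in Ground-3 and Space-1, and the nuclear receptor Esrrb, with 8.60 and 9.28 against 5.04 and 5.11, were higher in Ground-1/Space-3. Pou5f1 had 158 CPM in Ground-3 and 141 in Space-1, against 67.9 to 75.6 CPM in the other 4 libraries. Sox2 had 28.9 and 26.1 CPM against 10.8 to 14.2 in the others. For both genes, Ground-3/Space-1 stood apart while Ground-2/Space-2 was at the level of Ground-1/Space-3. Nanog, another core factor, fell below the filter, with 0 to 8 counts per library. Dppa3, a germ cell factor, had 15.7 and 15.1 CPM in Ground-3 and Space-1, 12.1 and 10.4 in Ground-2 and Space-2, and 7.08 and 5.88 in Ground-1 and Space-3.

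Genes of cell division were higher in Ground-3/Space-1 by a small amount. In 25 of 30 proliferation genes both Ground-3 and Space-1 were above both Ground-1 and Space-3, against 35.6% of all genes, none was apart, and the median difference was -0.22. Top2a, the topoisomerase of dividing cells, had 766 and 767 CPM in Ground-3 and Space-1, 770 and 729 in Ground-2 and Space-2, and 532 and 542 in Ground-1 and Space-3. Ccnb2, a mitotic cyclin, had 99.9 and 100.1, then 88.2 and 83.8, then 70.1 and 71.7 CPM. In 16 of the 30 genes Ground-2/Space-2 was above both outer pairs, against 3829 of all 15104 genes. Histone genes leaned the same way. Of 17 tested among 20 listed, 12 were higher without overlap in Ground-3/Space-1, against 35.6% of all genes. Of these, 2 were apart (Hist1h1a and Hist1h1b), against 1.03% of all genes, and the list median was -0.36. Poly(A) libraries catch few replication-dependent histone mRNAs, since these lack a poly(A) tail, and Hist1h1a stood at only 5.39 and 4.49 CPM against 1.89 and 2.44.

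Heat shock genes were also higher in Ground-3/Space-1, in 11 of 14 without overlap, against 35.6% of all genes, none of them apart, with a median of -0.26. Hsp90aa1, the inducible form of the chaperone HSP90, had 2123 and 2169 CPM in Ground-3 and Space-1 against 1520 and 1496 in Ground-1 and Space-3, and 1579 and 1616 in Ground-2 and Space-2. Hspa1a, an inducible HSP70, had 14.4 and 14.9 CPM against 8.28 and 6.48, and shares near-identical sequence with Hspa1b, so that the split of reads between these genes is uncertain. Hspb1, a small heat shock protein, was the exception, with 6.30 and 5.92 CPM in Ground-1 and Space-3 against 3.95 and 3.42.

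Of 23 genes of the interferon response tested of 29 listed, 14 were higher without overlap in Ground-3/Space-1 and 6 in Ground-1/Space-3, against 35.6% and 36.3% of all genes. The median was -0.22, and -0.13 without Ground-1. Psmb8, a subunit of the immunoproteasome, was the apart member, against 1.03% of all genes. It had 16.0 and 14.7 CPM in Ground-3 and Space-1, 12.1 and 12.4 in Ground-2 and Space-2, and 6.46 and 6.92 in Ground-1 and Space-3. Irf1, the transcription factor that induces it, had 379 and 361, then 318 and 313, then 181 and 192 CPM, a difference of -0.99. Ifi47, an interferon-induced GTPase outside the list, had 9.21 and 7.001, then 4.26 and 3.62, then 2.18 and 2.08 CPM. All 3 genes ran in steps from Ground-3/Space-1 down to Ground-1/Space-3. Irf7, Ifit3 and Ifi44 had 0 to 4 counts in every library.

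The Hoxc cluster on chromosome 15 was looked at after Hoxc11 and Hoxc13 had appeared among the genes with the widest distance. Of its 9 genes, 8 passed the filter. The 5 genes Hoxc6, Hoxc10, Hoxc11, Hoxc12 and Hoxc13 were apart and higher in Ground-3/Space-1, against 1.03% of all genes. Hoxc11 had 10.5 and 12.3 CPM in Ground-3 and Space-1, 6.02 and 6.34 in Ground-2 and Space-2, and 3.58 and 3.08 in Ground-1 and Space-3. Hoxc12 had 5.57 and 5.85, then 3.51 and 3.89, then 1.85 and 1.84 CPM. Hoxc8 and Hoxc9 had differences of -0.89 and -0.60 without overlap, as 35.6% of all genes were higher in Ground-3/Space-1 without overlap. For Hoxc4, at -0.21, the pairs overlapped. Neighbouring Hoxc genes lie side by side, so these are not independent loci.

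Imprinted genes, which are expressed from 1 parental copy in most tissues, differed in both directions: of 29 tested among 31 listed, 5 were apart and higher in Ground-1/Space-3 and 2 in Ground-3/Space-1, against 4.69% and 1.03% of all genes, with a median of 0.22. Rasgrf1, an exchange factor that activates Ras, had 4.16 and 3.999 CPM in Ground-1 and Space-3, 2.77 and 2.61 in Ground-2 and Space-2, and 0.833 and 0.947 in Ground-3 and Space-1. Dlk1, a Notch-type ligand, had 34.1 and 33.4, then 24.4 and 23.4, then 15.2 and 14.9 CPM. Nnat had 34.9 and 33.6 CPM in Ground-3 and Space-1, and 11.7 to 15.1 CPM in the other 4 libraries. Peg10 likewise had 41.3 and 42.9 CPM against 17.4 to 20.6. Nnat and Peg10 thus resembled Pou5f1 and Sox2, and Rasgrf1 and Dlk1 resembled Bcl6b. The remaining apart members, Plagl1, Mirg and Magel2, had differences of 1.44, 1.45 and 1.30.

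Among 17 phosphodiesterases tested of 24 listed, Pde4c was the 1 gene apart and higher in Ground-3/Space-1, against 1.03% of all genes. Pde2a, which breaks down cyclic AMP and cyclic GMP, and Pde1b were apart the other way, against 4.69% of all genes. Pde2a had 20.1 and 20.96 CPM in Ground-1 and Space-3 against 7.89 and 7.41, and Pde1b had 4.12 and 3.999 CPM against 2.15 and 1.69. Of 10 gelsolin-family and actin-severing genes tested of 11 listed, Scin and Capg, which caps actin filaments, were apart and higher in Ground-1/Space-3, against 4.69% of all genes. Pde4c and Scin mark the split, so that they were apart is part of the choice. Capg had 48.2 and 48.7 CPM in Ground-1 and Space-3, 36.9 and 37.0 in Ground-2 and Space-2, and 23.5 and 20.8 in Ground-3 and Space-1. The medians over these families were 0.14 and 0.22, and that of the phosphodiesterases was 0.0078 without Space-3.

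Notch pathway genes included 3 apart of 16 tested, all higher in Ground-1/Space-3, against 4.69% of all genes: the glycosyltransferase Lfng and the targets Nrarp and Hey2. Nrarp had 42.5 and 42.7 CPM in Ground-1 and Space-3 against 20.7 and 21.2, and Lfng 18.4 and 17.6 against 7.497 and 7.17. The median over the list was 0.064, and 0.041 without Space-3. Wnt targets and inhibitors were divided, with 3 apart and higher in Ground-1/Space-3 and 1 in Ground-3/Space-1 among 14 tested of 17 listed, against 4.69% and 1.03% of all genes. The median was -0.011, from -0.0997 to 0.027 with each library left out, and 0.053 under scaling by total counts. Sp5, a Wnt target, had 45.9 and 44.4 CPM in Ground-3 and Space-1 against 19.7 and 19.5 in Ground-1 and Space-3, while T, which Wnt signalling also induces, had 13.1 and 10.3 CPM in Ground-1 and Space-3 against 4.52 and 3.95. Tgfb1, the growth factor, had 60.7 and 63.0 CPM in Ground-1 and Space-3 against 22.7 and 22.8, the most abundant of 3 apart genes among 21 tested of 24 listed for the TGF-beta superfamily, against 4.69% of all genes. The median of that list was 0.12, but 0.38 without Ground-3, 0.39 without Space-3 and 0.063 without Space-1.

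**Figure D4:**
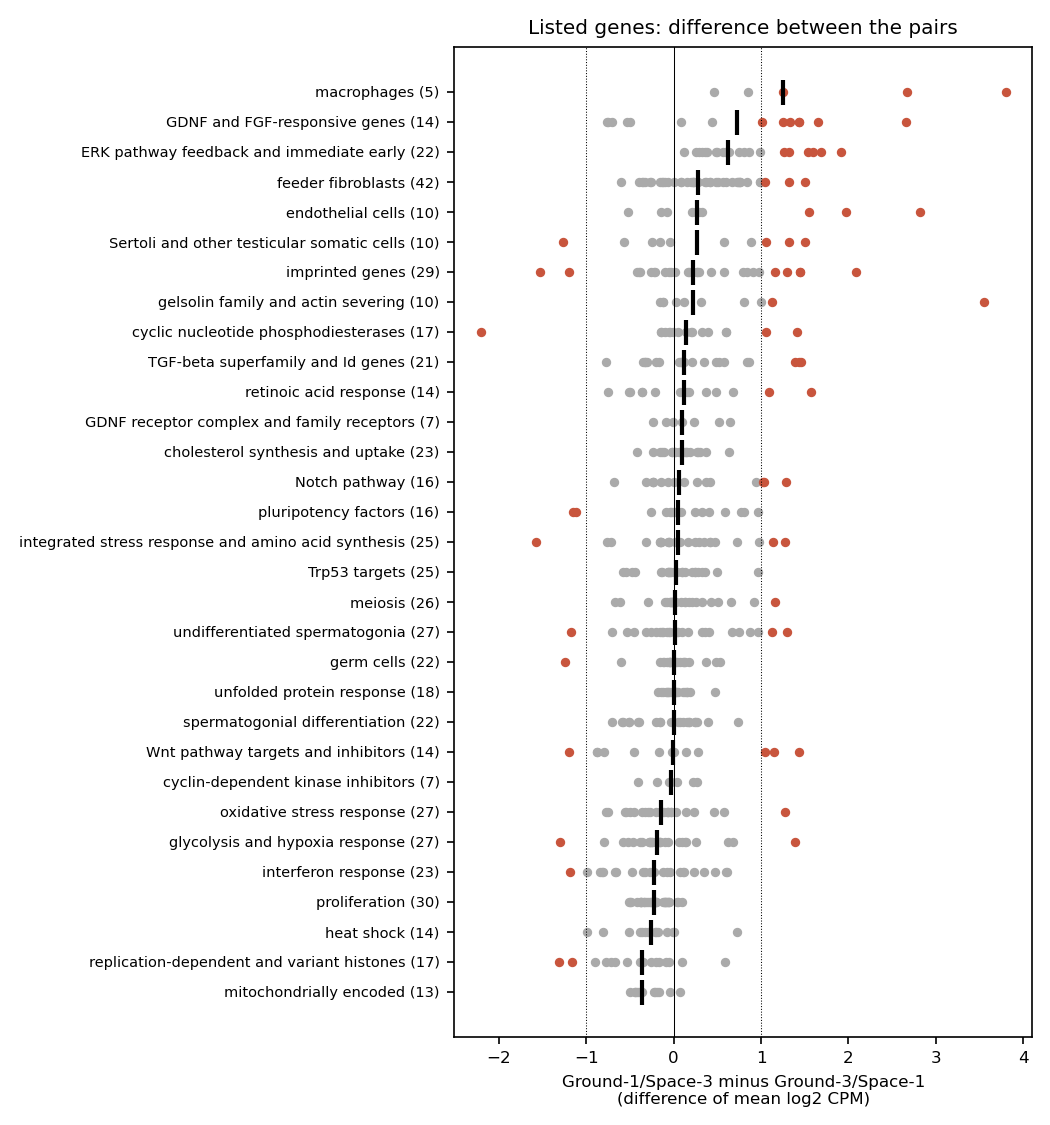
Difference of mean log2 CPM, Ground-1/Space-3 minus Ground-3/Space-1, for each tested member of 31 gene lists (rows, number of members in brackets); red points are apart genes, black bars are list medians, dotted lines mark a 2-fold difference. The ERK list lies wholly above 0 and most proliferation genes just below it.

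Markers of other cell types were examined beside these results. Of all genes, 4.69% were apart and higher in Ground-1/Space-3 and 1.03% in Ground-3/Space-1. Without the 2-fold demand, 36.3% and 35.6% of all genes did not overlap. All 22 germ cell markers were detected, with summed levels of 5146 to 5233 CPM in the 6 libraries, and this sum overlapped between the pairs. Its members went both ways, with 9 that were higher without overlap in Ground-1/Space-3, 7 in Ground-3/Space-1, Dppa3 among them as the 1 apart gene, and 6 that overlapped. The summed level of 43 fibroblast genes, for the feeder layer, was 1610 CPM in Ground-1, 1456 in Space-3, 1614 in Ground-3, 1207 in Space-1, 1612 in Ground-2 and 1594 in Space-2. The fibroblast sums of the pairs overlapped, since the low value was that of Space-1, and 26 of 42 tested genes overlapped as well. The genes Acta2, Col5a2 and Postn, 3 in all, were apart and higher in Ground-1/Space-3, and the list median of 0.28 became -0.13 without Space-1, 0.80 without Ground-3, 0.12 without Ground-1 and 0.47 without Space-3. In bulk RNA, fewer cells of a type and less RNA per cell cannot be told apart. The part of the feeder layer in the other differences was not tested.

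Of 14 endothelial markers 10 were tested, and Kdr, Eng and Cdh5 were apart and higher in Ground-1/Space-3, against 4.69% of all genes. In 7 of the 10 the pairs did not overlap and Ground-1/Space-3 was higher, against 36.3% of all genes. In 2 the pairs ran the other way without overlap, against 35.6% of all genes, and the list median was 0.27. The mean log2 CPM over the 10 genes was 3.35 in Ground-1, 3.33 in Space-3, 2.73 in Ground-3 and 2.61 in Space-1. Kdr, a VEGF receptor, had 9.14 and 7.56 CPM in Ground-1 and Space-3, 2.93 and 3.57 in Ground-2 and Space-2, and 1.14 and 1.07 in Ground-3 and Space-1. Pecam1, Plvap and Egfl7 differed by -0.14, -0.070 and 0.21, Robo4 and Emcn had 0 or 1 counts in every library, and the summed level was 171 to 176 CPM with the pairs overlapping. Erg, an ETS factor and the most abundant member, went the other way, with 55.7 and 59.2 CPM in Ground-1 and Space-3 against 84.4 and 80.2 in Ground-3 and Space-1. The part of endothelial cells in the other differences was not tested. Of 18 macrophage markers 5 passed the filter, a filter that favours genes high in some library. Mrc1, Ptprc and Fcer1g were apart and higher in Ground-1/Space-3, against 4.69% of all genes. Mrc1, the mannose receptor, had 5.27 and 5.80 CPM in Ground-1 and Space-3, 1.06 and 1.44 in Ground-2 and Space-2, and 0.395 and 0.247 in Ground-3 and Space-1. C1qa, C1qb, C1qc and Mpeg1 had no count in any library, Csf1r, Lyz2 and Adgre1 had 0 to 2, and the summed level of the list was 31.0 to 31.1 CPM in Ground-1/Space-3 and 15.9 to 19.5 CPM in Ground-3/Space-1, to which Cd68 alone gave 14.0 to 22.0 CPM. Of 19 markers of Sertoli and other testicular somatic cells 10 were tested. Of these, Clu, Gata4 and Acta2, 3 in all, were apart and higher in Ground-1/Space-3, against 4.69% of all genes. Gata1 was the 1 gene apart and higher in Ground-3/Space-1, against 1.03% of all genes. Acta2 is also on the fibroblast list and adds to both sums. Gata4 had 6 to 17 counts per library and Gata1 0 to 16, and Sox9 was not apart, with a difference of 0.88. Clu and Sox9 stood at most at 9.60 CPM, Fshr and Hsd3b1 had no count, and the sums separated the pairs, with 54.3 CPM in Ground-1 and 50.5 in Space-3 against 41.2 in Ground-3 and 38.3 in Space-1, and 45.3 and 46.8 in Ground-2 and Space-2. The part of such cells in the other differences was not tested.

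The share of counts from the mitochondrial genome was 3.09% in Ground-1, 2.81% in Space-3, 5.69% in Ground-3, 2.51% in Space-1, 11.5% in Ground-2 and 7.12% in Space-2. It overlapped between the outer pairs, as did all 13 mitochondrial genes, and was highest in Ground-2/Space-2. Ground-2 and Space-2 also had the lowest total counts. The apart counts were 705 and 156 when mitochondrial genes were left out before scaling.

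The place of Ground-2 and Space-2 was then read gene by gene. For genes apart between the outer pairs, their mean lay between the means of those pairs in 87.6% of the 709 genes higher in Ground-1/Space-3 and in 87.7% of the 155 higher in Ground-3/Space-1, against 48.9% of all genes. With 0 at Ground-3/Space-1 and 100 at Ground-1/Space-3, the median place of Ground-2/Space-2 was 66.8 and 53.8. A mean between 2 distant values is more likely for genes chosen to be distant, and the outer pairs were picked as ends, so this share is a description. Single lists departed from it, as the immediate early genes, the GDNF receptors and Pou5f1, Sox2, Nnat and Peg10 show.

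**Figure D5:**
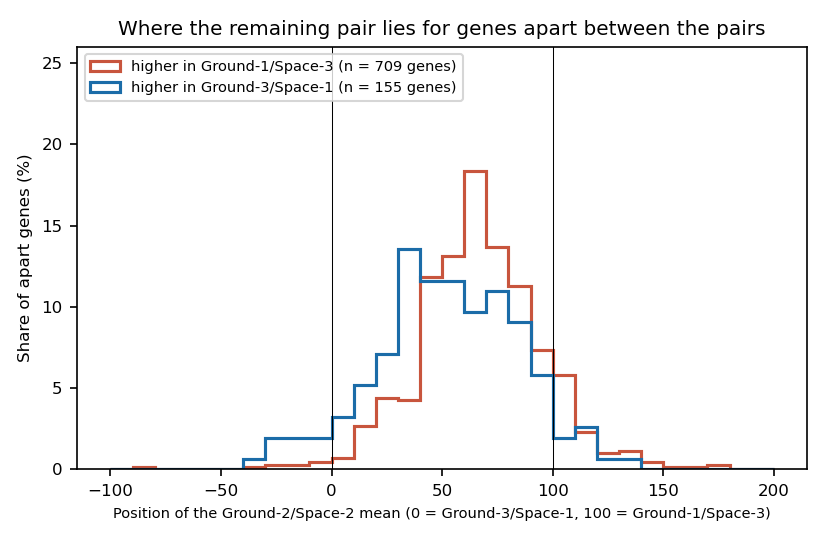
Place of the Ground-2/Space-2 mean for genes apart between the outer pairs (0 is Ground-3/Space-1, 100 is Ground-1/Space-3), as a share in % of the 709 (red) and 155 (blue) apart genes per bin. Most genes lie between the vertical lines, with medians of 66.8 and 53.8.

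Storage site was the comparison that the labels give, and each outer pair holds both sites. In the 4 libraries, edgeR's quasi-likelihood test of Space against Ground found 0 of 15336 genes (0%) at an adjusted p below 0.05, with 51 genes at an unadjusted p below 0.05, and DESeq2 found 0, with 34 at an unadjusted p below 0.05. The test says nothing about the apart genes, because the difference that chose them lies inside both groups. With the split between the pairs inside both groups, the biological coefficient of variation in this fit was 18.6%, and the p-values measure the spread between these libraries only. With the crossed pairs as a replicate block, 76 genes passed at an adjusted p below 0.05 in the same 4 libraries, 3 of them higher and 73 lower in Space, with 935 at an unadjusted p below 0.05. The block was chosen from the counts that the test uses, so this count is not independent of the choice, and the number of genes that differ by storage site depends on it.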

How the data were processed

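GS cell libraries were sequenced by the authors, whose notes name bcl2fastq 2.20, cutadapt 4.1, HISAT2 2.2.1 and HTSeq 2.0.2 with the mm10 build. The methods and the labels differ on the library kit and the sequencer, and how strand was treated in counting is not given in the sources used here. The authors deposited raw counts per gene for 32285 genes, with no normalization, in 6 libraries. Groups were taken from the titles. Members and gene lists were chosen with earlier results of these data known.

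Genes were filtered with filterByExpr with scaling factors from all 6 libraries (TMM) in edgeR 4.0.16 (R 4.3.3, limma 3.58.1). The prior count for log2 CPM was 2. Pairs were compared by values alone. Space was compared with Ground in the 4 libraries by edgeR's quasi-likelihood test with Benjamini-Hochberg adjustment and no block, with DESeq2 1.42.0 as an alternative. The code was tested on simulated data. Alternatives were other scalings, filters, prior counts and limits, replicate blocks, and each library left out.

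Named genes were Bcl6b, Scin and Pde4c, the 12 with the widest distance between nearest libraries in each direction at a mean of at least 5 CPM (unnamed gene models left out), and up to 4 members of each list by distance. Others were chosen after their values were seen, among them Ret, Zbtb16, Kit, Id4, Mycn, Spred1, Egr1, Junb, Lhx1, Dlk1, Peg10 and the Hoxc cluster. Gene positions came from GENCODE M21, which matched 32235 genes. A gene with no count in a library was limited to 3 counts there, which is 0.120 to 0.160 CPM.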

Additional observations from a re-analysis of the deposited data

How the results depend on the processing

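Rescaling by DESeq2-type size factors (702 and 156 genes apart), by total counts (810 and 131), with a filter on the 4 libraries (783 and 175) or a prior count of 0.5 (795 and 169) left both apart counts within 1.5 times of 709 and 155. Leaving out each library gave 744 to 846 genes higher in Ground-1/Space-3 and 166 to 216 higher in Ground-3/Space-1. The demand for no overlap is weaker with 1 library left in a pair, so higher counts are not a sign of stability. Of the 864 apart genes, 728 to 765 were still apart. With no filter except a nonzero count the counts were 1233 and 326 of 22898 genes, with a limit of 0.58 they were 1746 and 542, with all libraries at least 1 apart 359 and 92, and with a mean of at least 5 CPM, an alternative chosen after seeing the data, 148 and 61, each as the construction of the limit implies. Ground-2/Space-2 lay between the outer pairs in 81.6% to 90.7% of apart genes under 4 alternatives, against 87.6%.

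The number of genes that differed between Space and Ground was 0 under 10 of the alternatives run, including each library left out (0 to 0) and the replicate block by the numbers of the titles (0 genes, 21 unadjusted). Deviations from the site mean correlated at -0.71 for same-numbered libraries and at 0.71 for crossed ones. With 2 libraries per site, 1 of these values fixes the other, and the crossed pairs were chosen by likeness. Whether the title numbers pair the cultures was therefore not tested. With the crossed pairs as the replicate block, a choice made from the counts, 76 genes passed (3 higher and 73 lower in Space), of which 2 were among the 709 and 0 among the 155. The cause was not tested. Of 980 recomputed differences of named genes, 107 moved by at least 1 SD, where the SD is that between the libraries within a pair. Of 247 list medians, 73 moved by at least 1 such SD of the list mean. List medians changed sign in 17 of these cases, over 12 lists: GDNF receptors, undifferentiated spermatogonia, differentiation, retinoic acid, cyclin-dependent kinase inhibitors, Trp53 targets, both stress response lists of the endoplasmic reticulum and amino acid pathways, Wnt, fibroblasts, germ cells and mitochondrial genes.

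Limits: 2 libraries per pair were chosen by their likeness, so the distances are larger than in pairs named in advance. At low levels, counting error adds to the spread, and genes under the filter were not compared.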

Other observations

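Stress and metabolic genes outside the pathways above were mixed. Of all genes, 4.69% were apart and higher in Ground-1/Space-3 and 1.03% in Ground-3/Space-1. Of 25 tested genes of the integrated stress response and amino acid synthesis, 2 were apart and higher in Ground-1/Space-3 (Atf3 and Slc7a11). Ddit4 was apart the other way, and the list median was 0.046. Phgdh, the first enzyme of serine synthesis, had 215 and 213 CPM in Ground-3 and Space-1, 173 and 166 in Ground-2 and Space-2, and 131 and 129 in Ground-1 and Space-3. None of 18 unfolded protein response genes was apart (median 0.0076). Of 25 Trp53 targets, none was apart (median 0.033). The kinase gene Plk3 had the largest difference, with 52.6 and 51.1 CPM in Ground-1 and Space-3 against 26.4 and 26.5 in Ground-3 and Space-1, and the antiproliferative gene Btg2 went the other way, with 94.2 and 95.2 CPM against 140 and 136. None of 7 cyclin-dependent kinase inhibitors was apart (median -0.033).

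Of 27 oxidative stress genes, 18 were higher without overlap in Ground-3/Space-1, against 35.6% of all genes. Slc7a11 alone was apart the other way, against 4.69% of all genes (list median -0.14). The metallothionein Mt1 had 277 and 256 CPM in Ground-3 and Space-1, 263 and 246 in Ground-2 and Space-2, and 158 and 160 in Ground-1 and Space-3. Of 27 genes of glycolysis and the hypoxia response, 18 were higher without overlap in Ground-3/Space-1, against 35.6% of all genes (median -0.18). Pfkfb3, which speeds up glycolysis, had 18.2 and 16.4 CPM there against 7.25 and 6.68, while the first enzyme of glycolysis, Hk2, was higher in Ground-1 and Space-3, with 355 and 351 CPM against 216 and 225. None of 23 cholesterol genes was apart (median 0.098), and 17 had their highest mean in Ground-2/Space-2, against 3829 of all 15104 genes. Of 14 retinoic acid response genes, Dhrs3 and Cyp26a1, which remove or store retinoids, were apart and higher in Ground-1/Space-3. The share of all genes was 4.69%, and the list median was 0.12. Dhrs3 had 3.54 and 3.08 CPM in Ground-1 and Space-3 against 1.27 and 0.865. With each library left out, the medians ran from -0.018 to 0.11 for the integrated stress response, -0.037 to 0.018 for the unfolded protein response, -0.067 to 0.063 for the kinase inhibitors and from -0.081 upward for retinoic acid, where the low value was without Space-1, and that of the Trp53 targets was -0.024 without Space-1.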
